A study of Homo sapiens with 24 samples.

Results

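The interaction of Nrf2 siRNA and Pink1 siRNA was measured gene by gene in ARPE-19, a long-used human line derived from retinal pigment epithelium (RPE). It was taken as the group mean of the double Nrf2-Pink1 siRNA, minus that of Pink1 siRNA, minus that of Nrf2 siRNA, plus that of scramble, on the log2(TPM + 1) scale. TPM is transcript abundance per length, set to sum to a fixed total in every library. The value is 0 when the double siRNA shifts a gene by the sum of the 2 single shifts, negative when the gene ends below that additive prediction and positive when it ends above it. The shifts are added as log2 values, so an additive prediction given in TPM multiplies the 2 folds. All 24 deposited samples enter it, as 12 biological samples with the 2 technical replicates averaged. Of 24053 genes in the table, 13810 had a mean of at least 1 TPM and were tested, and the 9807 with a mean of at least 5 TPM are described. Gene lists also count tested members below 5 TPM.

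The groups were Nrf2-Pink1 siRNA (called the double siRNA below), Pink1 siRNA, Nrf2 siRNA and scramble, a control siRNA, with 3 biological samples each. All 4 groups received siRNA, and no group without it was analysed here. The labels speak of knockout and KD where the series design speaks of siRNA, which lowers a transcript without removing the gene. The labels also describe wounding of the cell layer, and whether the cells taken for RNA were wounded is not given in the sources used here.

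NRF2, encoded by NFE2L2, is a transcription factor that is held at low levels by KEAP1 and, when released, switches on genes for detoxification, glutathione, thioredoxin and NADPH supply. PINK1 is a mitochondrial kinase that builds up on damaged mitochondria and marks them for removal by mitophagy. RPE cells carry melanin made in melanosomes, and the transcription factor MITF drives their pigment genes by binding a short sequence called the M-box. Interferon-stimulated genes carry another short sequence, the interferon-stimulated response element.

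The promoters of 3 pigment genes with negative interactions and of 1 interferon-stimulated gene are shown because both groups recur in the results. Each is the 250 bases before the gene's start in RefSeq on GRCh38.p14, 5′ to 3′ on the plus strand, which is the strand of all 4 genes. Capitals mark TCATGTG, letters of the M-box, for the pigment genes, or GAAA, any 2 bases and GAAA again, letters of the interferon-stimulated response element, for IFIT1, both searched on both strands. TCATGTG holds the shorter E-box CANNTG within it. TYRP1, which encodes a melanin-synthesis enzyme, lies at chr9:12693135-12693384 with its match 145 bases before the start. TYR, which encodes tyrosinase, lies at chr11:89177625-89177874 with its match 105 bases before the start. TSPAN10, which encodes a tetraspanin of pigment cells, lies at chr17:81642055-81642304 with its match 80 bases before the start on the other strand. IFIT1, an antiviral effector, lies at chr10:89392373-89392622 with matches 116 and 103 bases before the start, also on the other strand.
TYRP1: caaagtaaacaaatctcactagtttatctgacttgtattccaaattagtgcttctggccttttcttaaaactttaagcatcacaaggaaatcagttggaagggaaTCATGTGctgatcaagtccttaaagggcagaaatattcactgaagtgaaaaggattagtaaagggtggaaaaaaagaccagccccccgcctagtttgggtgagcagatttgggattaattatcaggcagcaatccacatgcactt
TYR: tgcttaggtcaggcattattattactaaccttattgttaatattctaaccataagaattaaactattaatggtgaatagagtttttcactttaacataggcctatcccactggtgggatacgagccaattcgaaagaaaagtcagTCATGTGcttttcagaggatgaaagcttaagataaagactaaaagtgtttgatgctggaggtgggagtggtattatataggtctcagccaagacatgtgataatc
TSPAN10: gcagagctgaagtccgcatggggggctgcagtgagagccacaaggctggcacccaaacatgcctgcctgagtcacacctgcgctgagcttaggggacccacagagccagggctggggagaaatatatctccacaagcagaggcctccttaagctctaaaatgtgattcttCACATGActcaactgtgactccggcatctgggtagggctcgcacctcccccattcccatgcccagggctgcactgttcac
IFIT1: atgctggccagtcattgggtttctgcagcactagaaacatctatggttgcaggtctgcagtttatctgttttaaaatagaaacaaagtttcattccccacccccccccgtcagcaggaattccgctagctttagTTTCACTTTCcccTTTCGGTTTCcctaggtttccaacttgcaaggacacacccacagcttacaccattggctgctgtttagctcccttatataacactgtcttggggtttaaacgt
TCATGTG was in 886 of 35116 RefSeq promoters of this length (2.52%), and the interferon element's letters in 1061 (3.02%). Of the 20 RPE and pigment genes tested, 12 had a promoter in the RefSeq table and 5 of these held TCATGTG, which were GPNMB, GPR143, TSPAN10, TYR and TYRP1. Of the 35 interferon-stimulated genes tested, 29 had a promoter there and 22 held the interferon element's letters. The list counts take a gene as a match if any of its promoter entries matched, while the shares over all promoters count single entries. The list counts and these shares are therefore not like for like. A match describes the letters only.

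The double-siRNA samples varied more than the others. The median SD over genes of at least 5 TPM was 0.307 on the log2 scale with the double siRNA, 0.185 with Pink1 siRNA, 0.186 with Nrf2 siRNA and 0.148 with scramble. ENSG00000226958, the gene with the highest TPM, took 41.4%, 29.4% and 15.5% of all TPM in double-siRNA replicates 1, 2 and 3, and 24.9% to 38.6% in the other 9 samples. Of 13 RPE markers, 9 had a mean of at least 1 TPM, and RPE65, DCT, MLANA and TTR were below it. Of markers of other cell types, 1 of 12 blood and immune genes (CD68), 1 of 8 endothelial genes, 2 of 14 neural and photoreceptor genes and 4 of 10 fibroblast genes reached 1 TPM. The neural and photoreceptor genes were PDE6B and TUBB3, a neuronal tubulin with a mean of 45.8 TPM over all samples. The depth behind the TPM values is unknown, and fewer cells of a type and less RNA per cell cannot be told apart in such bulk samples.

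Against scramble, 104 of 13810 genes passed with the double siRNA (0.753%), 65 with Pink1 siRNA (0.471%) and 46 with Nrf2 siRNA (0.333%), all in the same fit. That fit shared an estimate of spread per gene over the 4 groups, while the double-siRNA samples varied most. The counts are therefore no ranking of the siRNAs. Both target transcripts were among the genes that passed and stayed low with the double siRNA. NFE2L2 (ENSG00000116044) had 22.2, 30.1 and 34.4 TPM in double-siRNA samples, 64.1, 70.4 and 71.6 TPM with Pink1 siRNA, 25.04, 11.1 and 23.9 TPM with Nrf2 siRNA and 89.2, 74.3 and 78.5 TPM with scramble. Every sample given Nrf2 siRNA, alone or in the double, lay below every sample without it. NFE2L2 fell by 2.03 on the log2 scale with Nrf2 siRNA against scramble (limma, adjusted p = 0.00523) and fell by 1.47 with the double siRNA against scramble (adjusted p = 0.0212). Its interaction was 0.79 (SE 0.359, 95% interval 0.015 to 1.57, unadjusted p = 0.0463, adjusted p = 0.899), with a double-siRNA level of 28.4 TPM from the fit against an additive prediction of 16.01 TPM.

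PINK1 (ENSG00000158828) had 15.3, 20.5 and 20.2 TPM in double-siRNA samples, 13.2, 12.4 and 18.3 TPM with Pink1 siRNA, 66.6, 50.7 and 54.3 TPM with Nrf2 siRNA and 53.9, 57.7 and 55.8 TPM with scramble. The 6 samples given Pink1 siRNA did not overlap the 6 without it. PINK1 fell by 1.88 with Pink1 siRNA against scramble (limma, adjusted p = 0.00056) and fell by 1.57 with the double siRNA against Nrf2 siRNA (adjusted p = 0.00914). The interaction was 0.31 (SE 0.247, 95% interval -0.22 to 0.85, adjusted p = 0.913). Reads of the antisense gene PINK1-AS, which overlaps PINK1, could enter either gene, since the use of strand in counting is not given in the sources used here.

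No gene passed the test of the interaction, 0 of 13810 (0.00%), with limma and Benjamini-Hochberg adjustment over all genes tested. The smallest adjusted p was 0.0558, shared by TYRP1 and CP, and SLC7A8 followed at 0.0697. When the fit was restricted to the 9807 genes of at least 5 TPM, 3 genes passed (0.0306%), and all 3 lay below the additive prediction: CP and TYRP1 (adjusted p = 0.01995 for both) and SLC7A8 (adjusted p = 0.02955). At an unadjusted p under 0.05 there were 753 genes (5.45%), of which 562 were negative (4.07%) and 191 positive (1.38%). Among the 9807 genes of at least 5 TPM there were 516 (5.26%). The split by sign over all genes tested depended on scaling, with 488 negative and 487 positive after median-of-ratios rescaling and 503 negative and 495 positive after quantile normalization. It also depended on 1 sample: without double-siRNA replicate 1 there were 649 negative and 1088 positive genes.

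For the genes of at least 5 TPM the interaction centred near 0. Its median was -0.017, with quartiles of -0.23 and 0.19, and 52.1% of the genes were negative. For 7074 of the 9807 genes (72.1%) the 95% interval lay wholly between -1 and 1, that is, within 2-fold of the additive prediction. The median SE was 0.277 and the median half-width of the interval 0.598. Smaller departures could therefore not be told from 0 for a typical gene, even before adjustment. After adjustment over all genes tested, larger departures did not pass either. Examples are 1.60 for MAMDC2 and -1.93 for TYRP1 (limma, adjusted p = 0.47 and 0.0558). Estimates beyond -1 or 1 were found for 189 genes, 123 negative and 66 positive, and 77 of the 189 had at least 1 sample listed at 0 TPM. When the same sum was taken on plain TPM instead of the log scale, the sign differed for 452 genes (4.61%), none of which had an unadjusted p under 0.05.

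**Figure D1:**
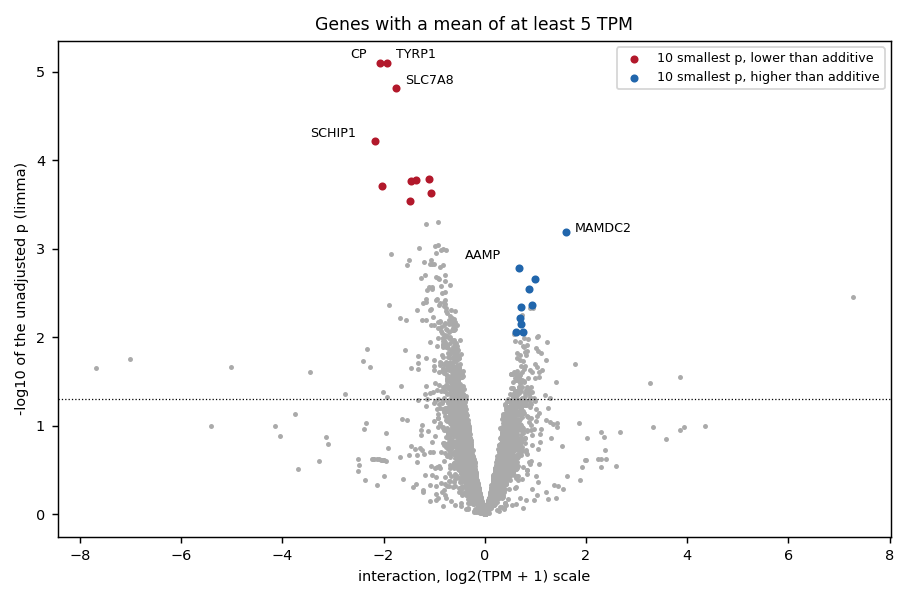
Interaction on the log2(TPM + 1) scale (x axis) against -log10 of the unadjusted limma p (y axis) for the 9807 genes of at least 5 TPM. Each point is a gene, red and blue mark the 10 genes with the smallest p in each direction, and the dotted line is the unadjusted threshold of 0.05. TYRP1, CP, SLC7A8 and SCHIP1 stand highest, all on the negative side, and MAMDC2 is highest on the positive side.

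The pigment genes TYRP1 and TSPAN10 rose with Pink1 siRNA and lay well below the additive prediction with the double siRNA. TYRP1 (ENSG00000107165) had 24.4, 20.8 and 34.5 TPM in double-siRNA samples, 40.01, 43.6 and 53 TPM with Pink1 siRNA, 24.6, 23.9 and 21.1 TPM with Nrf2 siRNA and 9.77, 8.29 and 11.7 TPM with scramble. All 9 siRNA samples were above all scramble samples, the Pink1 siRNA samples were highest, and the double-siRNA samples overlapped those given Nrf2 siRNA. TYRP1 rose by 2.09 on the log2 scale with Pink1 siRNA against scramble (limma, adjusted p = 0.00056), by 1.16 with Nrf2 siRNA (adjusted p = 0.0248) and by 1.32 with the double siRNA (adjusted p = 0.00856). The interaction was -1.93 (SE 0.272, 95% interval -2.52 to -1.35, adjusted p = 0.0558). The additive prediction, from shifts added on the log2 scale, was 102 TPM and the fitted level with the double siRNA was 26 TPM. Taken on plain TPM, the interaction was -32.3 TPM, a smaller shortfall.

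TSPAN10 (ENSG00000182612) had 72.7, 58.02 and 47.1 TPM in double-siRNA samples, 94.02, 101 and 143 TPM with Pink1 siRNA, 57.8, 78.1 and 65.8 TPM with Nrf2 siRNA and 47.6, 40.3 and 48.3 TPM with scramble. The Pink1 siRNA samples lay above all other samples, and the double-siRNA samples overlapped both Nrf2 siRNA and scramble. TSPAN10 rose by 1.27 with Pink1 siRNA against scramble (limma, adjusted p = 0.0152). Its difference between Nrf2 siRNA and scramble was 0.55 (adjusted p = 0.267) and its interaction -1.46 (95% interval -2.07 to -0.85, adjusted p = 0.266).

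Among the 20 members of the RPE identity and pigment list that were tested, none passed the interaction test. Of these 20 members, 13 were negative (65.0%), against 54.0% of all genes. The median interaction was -0.25, against -0.034 over all genes tested. It was -0.11 without double-siRNA replicate 1 and -0.41 without double-siRNA replicate 3. At an unadjusted p under 0.05 there were 7 negative members and 0 positive ones, where 4.07% of all genes were negative at that level. They were TYRP1, TSPAN10, MYO7A, TYR, SLC45A2, SERPINF1 and GPNMB. Of these, TYR, SLC45A2 and SERPINF1 had low means of 2.71, 3.89 and 1.285 TPM over all samples. MYO7A, the myosin that carries melanosomes in RPE cells, averaged 10.98 ± 2.18 TPM with the double siRNA, 21.1 ± 4.43 TPM with Pink1 siRNA, 10.1 ± 0.847 TPM with Nrf2 siRNA and 8.12 ± 0.699 TPM with scramble (SD, n = 3 each), with an interaction of -1.16 (adjusted p = 0.439). TYR, whose enzyme starts melanin synthesis, had 3.75, 3.69 and 4.82 TPM in double-siRNA samples, 3.33, 3.81 and 4.01 TPM with Pink1 siRNA, 3.19, 2.65 and 2.10 TPM with Nrf2 siRNA and 0.195, 0.545 and 0.465 TPM with scramble. It rose with the double siRNA (log2 difference 1.86, adjusted p = 0.00301), with Pink1 siRNA (1.76, adjusted p = 0.0042) and with Nrf2 siRNA (1.38, adjusted p = 0.0236), each against scramble.

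The interaction of TYR was -1.27 (adjusted p = 0.499) at levels under 5 TPM. Every siRNA sample lay above every scramble sample, and both single-siRNA differences share those scramble samples. GPNMB, a glycoprotein of melanosomes and lysosomes, had 412, 607 and 668 TPM in double-siRNA samples, 804, 883 and 875 TPM with Pink1 siRNA, 578, 498 and 593 TPM with Nrf2 siRNA and 564, 562 and 547 TPM with scramble, and its interaction was -0.62 (adjusted p = 0.868). MITF, the factor that binds the M-box, had 59.2, 90.2 and 110.5 TPM in double-siRNA samples, 77.8, 79.7 and 107 TPM with Pink1 siRNA, 71.9, 55.3 and 74.7 TPM with Nrf2 siRNA and 64.3, 57.8 and 60.5 TPM with scramble. Its interaction was -0.19, with a 95% interval of -0.84 to 0.47. This is a transcript level only, and any part of MITF in the values of the pigment genes was not tested. The other members ranged from -1.62 for SERPINF1, a secreted neurotrophic factor, to 0.43 for CRYAB, a small heat-shock protein. The SERPINF1 value has an SE of 0.576 and comes from a mean of 1.285 TPM. MYO7A, TYR, GPNMB and MITF, and the other list members given here beyond TYRP1 and TSPAN10, were chosen after their values were seen.

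The transporters SLC7A8 and ABCB5 also lay below the additive prediction with the double siRNA. SLC7A8 (ENSG00000092068), which carries neutral amino acids across the cell membrane, had 44.4, 35.8 and 33.5 TPM in double-siRNA samples, 61.8, 57.2 and 81.8 TPM with Pink1 siRNA, 39.3, 30.6 and 31.6 TPM with Nrf2 siRNA and 20.04, 17.1 and 14 TPM with scramble. All 9 siRNA samples lay above scramble, and the double-siRNA samples overlapped those with Nrf2 siRNA and lay below those with Pink1 siRNA. SLC7A8 rose by 1.91 with Pink1 siRNA (limma, adjusted p = 0.000597) and by 1.11 with the double siRNA (adjusted p = 0.0192) against scramble. Its interaction was -1.75 (SE 0.262, 95% interval -2.32 to -1.19, adjusted p = 0.0697), with 37.6 TPM fitted for the double siRNA against an additive prediction of 129 TPM. On plain TPM the interaction of SLC7A8 was -45.85 TPM, a smaller shortfall. ABCB5 (ENSG00000004846), an ATP-binding cassette transporter, had 25.2, 37.9 and 36.8 TPM in double-siRNA samples, 39.6, 43.4 and 31.9 TPM with Pink1 siRNA, 41.6, 33.2 and 38.7 TPM with Nrf2 siRNA and 18.9, 15.98 and 14.7 TPM with scramble. All 9 siRNA samples lay above scramble, and the 3 siRNA groups overlapped. ABCB5 rose by 0.95 with the double siRNA, 1.16 with Pink1 siRNA and 1.15 with Nrf2 siRNA against scramble (adjusted p = 0.0307, 0.0163 and 0.0236 in that order), with an interaction of -1.36 (adjusted p = 0.266). With the siRNA groups at like levels, that value rests largely on the low scramble samples, which both single-siRNA differences share.

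CP (ENSG00000047457), which encodes ceruloplasmin, the copper-carrying ferroxidase of iron export, had 14.2, 23.8 and 22.3 TPM in double-siRNA samples, 37.4, 31.5 and 36.1 TPM with Pink1 siRNA, 25.9, 26.4 and 29.8 TPM with Nrf2 siRNA and 14.3, 9.02 and 9.36 TPM with scramble. All samples given a single siRNA lay above scramble and above every double-siRNA sample, and double-siRNA replicate 1 overlapped scramble. CP rose by 1.62 with Pink1 siRNA (limma, adjusted p = 0.00451) and by 1.28 with Nrf2 siRNA (adjusted p = 0.0236) against scramble, while the double siRNA differed from scramble by 0.82 (adjusted p = 0.0944). The interaction was -2.08 (SE 0.292, 95% interval -2.71 to -1.45, adjusted p = 0.0558), with 19.6 TPM fitted for the double siRNA against 86.2 TPM predicted. On plain TPM the interaction of CP was -31.4 TPM, a smaller shortfall.

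**Figure D2:**
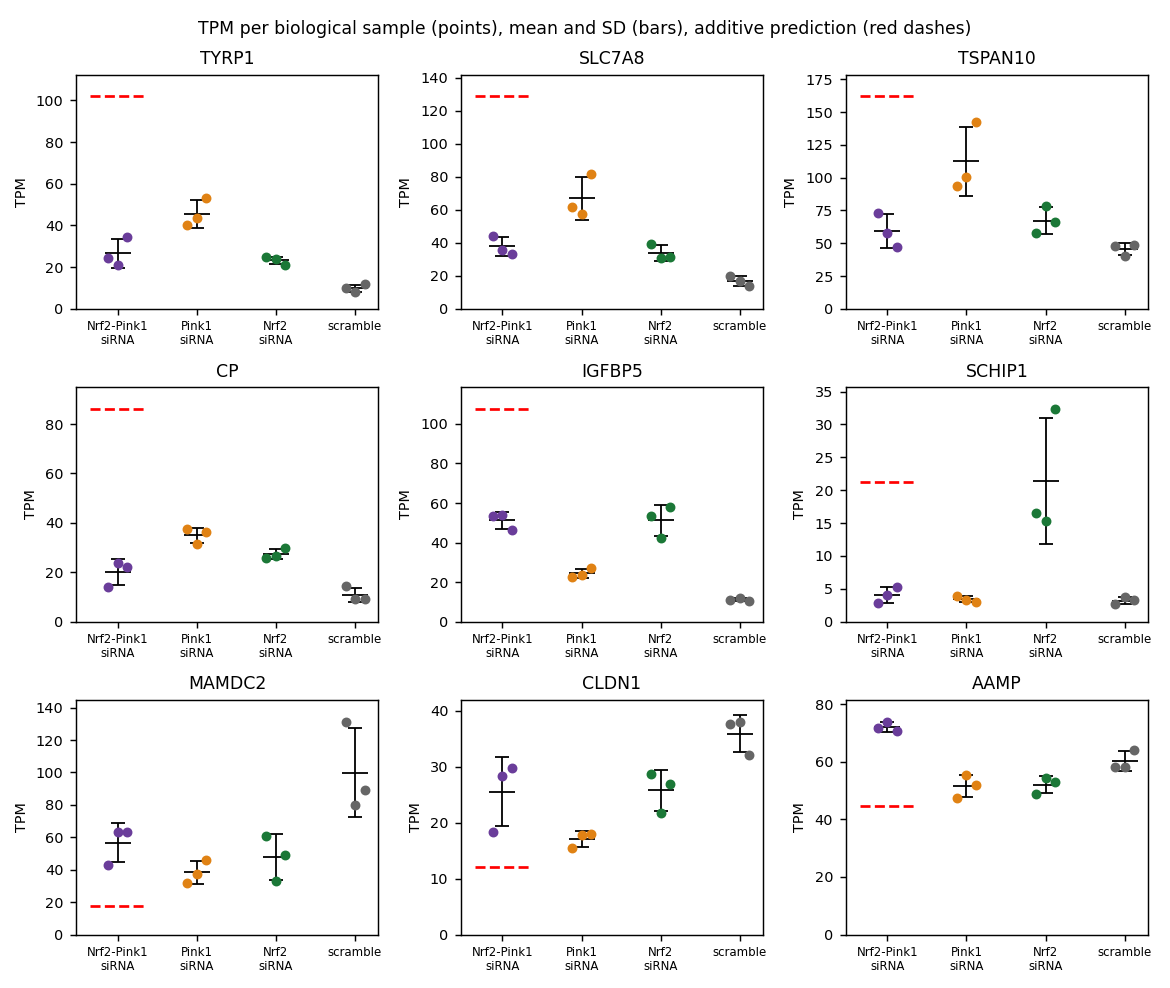
TPM (y axes, from 0) of 9 genes in the 12 biological samples (points) by siRNA group, with the group mean and SD (black) and the additive prediction for the double siRNA (red dashes). For TYRP1, SLC7A8, TSPAN10, CP, IGFBP5 and SCHIP1 all double-siRNA points lie below the dashes, and for MAMDC2, CLDN1 and AAMP all lie above them.

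IGFBP5 and SCHIP1 differed in how the double siRNA compared with each single siRNA. IGFBP5 (ENSG00000115461), a binding protein for insulin-like growth factors, had 53.7, 53.7 and 46.2 TPM in double-siRNA samples, 22.8, 23.7 and 27.2 TPM with Pink1 siRNA, 53.5, 42.5 and 57.8 TPM with Nrf2 siRNA and 10.9, 12.2 and 10.4 TPM with scramble. The double-siRNA samples overlapped Nrf2 siRNA and lay above Pink1 siRNA, and scramble was lowest. IGFBP5 rose by 2.10 with the double siRNA (limma, adjusted p = 4.51e-05), by 1.07 with Pink1 siRNA (adjusted p = 0.00728) and by 2.09 with Nrf2 siRNA (adjusted p = 4.69e-05) against scramble. The double siRNA and Nrf2 siRNA differed by 0.0068 (SE 0.149), and the interaction was -1.06 (adjusted p = 0.271).

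SCHIP1 (ENSG00000151967), which encodes a cytoskeletal partner of schwannomin, had 2.86, 4.005 and 5.21 TPM in double-siRNA samples, 3.87, 3.32 and 3.05 TPM with Pink1 siRNA, 16.5, 15.3 and 32.4 TPM with Nrf2 siRNA and 2.63, 3.69 and 3.31 TPM with scramble. Only the Nrf2 siRNA samples stood apart, and the double-siRNA samples overlapped both Pink1 siRNA and scramble. SCHIP1 rose by 2.34 with Nrf2 siRNA against scramble (limma, adjusted p = 0.00211) and fell by 2.10 with the double siRNA against Nrf2 siRNA (adjusted p = 0.0166). The double siRNA was tested against Nrf2 siRNA in the same fit, where 2 of 13810 genes passed (0.0145%). The interaction of SCHIP1 was -2.17 (SE 0.373, 95% interval -2.98 to -1.37, adjusted p = 0.209).

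The other genes with the smallest p on the negative side were KMT2C, FTLP3 and NUDT14. KMT2C (ENSG00000055609), a histone H3 lysine methyltransferase, had 13.4, 13.96 and 11.5 TPM in double-siRNA samples, 16.7, 17.6 and 21.6 TPM with Pink1 siRNA, 22.3, 18.4 and 23.96 TPM with Nrf2 siRNA and 13.1, 13.8 and 13.8 TPM with scramble. Both single-siRNA groups lay above scramble and above the double siRNA, and its interaction was -1.11 (adjusted p = 0.266). NUDT14, a nucleotide-sugar hydrolase, averaged 16.98 ± 3.94 TPM with the double siRNA, 24.7 ± 6.08 TPM with Pink1 siRNA, 22.9 ± 3.07 TPM with Nrf2 siRNA and 11.3 ± 2.01 TPM with scramble (SD, n = 3 each), with an interaction of -1.47 (adjusted p = 0.307). FTLP3, a pseudogene of ferritin light chain, averaged 10.1 ± 0.826 TPM with the double siRNA, 24.5 ± 3.13 TPM with Pink1 siRNA, 21.2 ± 6.59 TPM with Nrf2 siRNA and 11.7 ± 4.80 TPM with scramble (SD, n = 3 each), with an interaction of -2.04 (adjusted p = 0.267). Reads of FTLP3 can come from FTL itself, whose interaction was -0.39 (adjusted p = 0.913), so the pseudogene's value is uncertain.

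The 10 genes with the smallest p on the positive side had interactions of 0.62 to 1.60, and their adjusted p was 0.47 or more. MAMDC2 (ENSG00000165072), which encodes a secreted proteoglycan, had 42.6, 63.4 and 63.5 TPM in double-siRNA samples, 31.99, 37.3 and 45.8 TPM with Pink1 siRNA, 61.1, 33.2 and 49.05 TPM with Nrf2 siRNA and 131, 79.6 and 88.9 TPM with scramble. Every siRNA sample lay below every scramble sample, and the double-siRNA samples overlapped Nrf2 siRNA and, through replicate 1, Pink1 siRNA. MAMDC2 fell by 1.34 with Pink1 siRNA against scramble (limma, adjusted p = 0.0361), and the double siRNA differed from scramble by -0.80 (adjusted p = 0.169). The interaction was 1.60 (SE 0.357, 95% interval 0.82 to 2.37, unadjusted p = 0.000642, adjusted p = 0.47).

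CLDN1 (ENSG00000163347), a tight-junction claudin, had 18.4, 28.3 and 29.8 TPM in double-siRNA samples, 15.4, 17.8 and 17.9 TPM with Pink1 siRNA, 28.7, 21.7 and 26.9 TPM with Nrf2 siRNA and 37.6, 38.1 and 32.02 TPM with scramble. It fell by 1.03 with Pink1 siRNA against scramble (limma, adjusted p = 0.0289), and its interaction was 0.996 (95% interval 0.43 to 1.56, adjusted p = 0.544). ITGBL1 (ENSG00000198542), a secreted integrin-like protein, had 26.8, 40.2 and 38.5 TPM in double-siRNA samples, 13.2, 15.7 and 16.5 TPM with Pink1 siRNA, 42.3, 41.2 and 41.6 TPM with Nrf2 siRNA and 38.2, 34.01 and 30.5 TPM with scramble. The Pink1 siRNA samples alone lay below all others. ITGBL1 fell by 1.13 with Pink1 siRNA against scramble (adjusted p = 0.00934) and rose by 1.15 with the double siRNA against Pink1 siRNA (adjusted p = 0.0311), a test that 6 of 13810 genes passed (0.0434%). Its interaction was 0.86 (adjusted p = 0.593).

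AAMP (ENSG00000127837), a cytosolic protein linked to cell migration, had 71.8, 73.98 and 70.6 TPM in double-siRNA samples, 47.5, 55.4 and 51.9 TPM with Pink1 siRNA, 48.8, 54.3 and 53.1 TPM with Nrf2 siRNA and 58.1, 58.2 and 64.3 TPM with scramble. All 3 double-siRNA samples lay above the other 9 samples, and both single-siRNA groups lay below scramble. The interaction was 0.68 (SE 0.173, 95% interval 0.31 to 1.06, adjusted p = 0.508). The other 6 of the 10 genes with the smallest p on this side were KDM2A, a histone demethylase, PHF20, a reader of histone marks, ECHDC1, an enzyme that removes a toxic fatty-acid intermediate, ACKR3, a decoy receptor for the chemokine CXCL12, TUT4, which adds uridines to RNA, and KIN, a nucleic-acid binding protein. Their interactions ran from 0.62 for TUT4 to 0.93 for KDM2A. Their adjusted p ran from 0.668 for KDM2A to 0.742 for KIN.

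**Figure D3:**
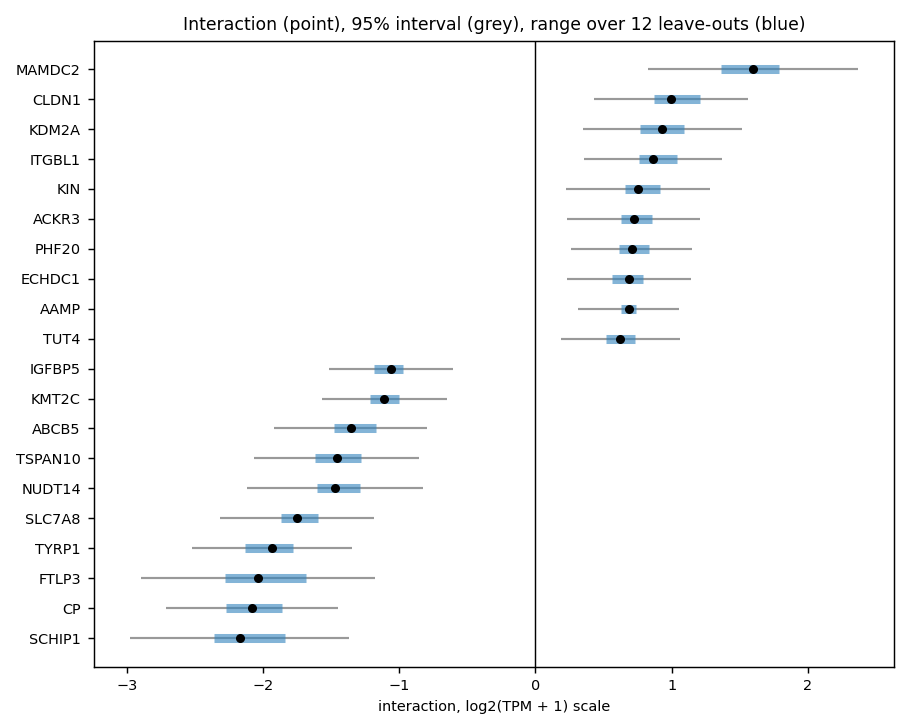
Interaction (points, x axis, log2(TPM + 1) scale) of the 10 genes with the smallest p in each direction, with the 95% interval of the fit (grey lines) and the range when each of the 12 samples was left out in turn (blue bars). The points run from -2.17 for SCHIP1 to 1.60 for MAMDC2, and no blue bar reaches 0. These genes were picked for their small p, so the intervals describe them and support no call.

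Groups that lay fully apart in opposite directions, for one siRNA alone and beside the other, were few. For Nrf2 siRNA, all 3 samples lay on one side of scramble and all 3 double-siRNA samples lay on the opposite side of Pink1 siRNA in 35 of 9807 genes (0.357%). Of these, 32 were higher with Nrf2 siRNA alone and lower beside Pink1 siRNA, and 3 the other way round. Groups were fully apart in 25.5% of genes for Nrf2 siRNA against scramble and in 8.04% for the double siRNA against Pink1 siRNA. For Pink1 siRNA the same held in 34 genes (0.347%), 30 higher alone and lower beside Nrf2 siRNA and 4 the other way round, where groups were apart in 28.2% of genes alone and 8.95% beside Nrf2 siRNA. The shares apart in opposite directions were small beside those apart at all, and no gene is read as reversed from them. These counts use the samples of the interaction itself and add no test to it.

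Among the genes counted, CP and KMT2C were higher with either single siRNA and lower when it was added to the other, and AAMP was lower and then higher. TYRP1, SLC7A8, TSPAN10 and MYO7A were higher with Nrf2 siRNA than with scramble and lower with the double siRNA than with Pink1 siRNA. Others were MBNL1, a splicing regulator (interaction -0.54), CCND1, the G1 cyclin (-0.45), and GM2A, a lysosomal activator protein (-0.45). MBNL1, CCND1 and GM2A were picked with their values in view, and none passed the interaction test (adjusted p = 0.807, 0.873 and 0.903 in that order).

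Genes that responded most to a single siRNA were looked up for their interaction, with the caution that both quantities share the scramble samples and the single-siRNA samples. Among the 8 genes with the smallest p for Pink1 siRNA were the matrix genes HMCN1 and FBN2, the ubiquitin ligase PDZRN3 and the endoplasmic reticulum isomerase PDIA4. HMCN1, the basement-membrane protein hemicentin, had 17.9, 21.9 and 29.4 TPM in double-siRNA samples, 34.2, 44.1 and 51.5 TPM with Pink1 siRNA, 13.3, 9.51 and 11.01 TPM with Nrf2 siRNA and 8.59, 9.12 and 4.29 TPM with scramble. It rose by 2.45 with Pink1 siRNA and 1.56 with the double siRNA against scramble (limma, adjusted p = 0.00128 and 0.0192), with an interaction of -1.49 (adjusted p = 0.499). FBN2, fibrillin 2 of elastic fibres, had 33.3, 33.6 and 26.8 TPM in double-siRNA samples, 50.7, 59.7 and 66.1 TPM with Pink1 siRNA, 28.9, 20.3 and 26.1 TPM with Nrf2 siRNA and 24.3, 23.9 and 22.9 TPM with scramble. It rose by 1.27 with Pink1 siRNA (adjusted p = 0.00451), the double siRNA differed from scramble by 0.38 (adjusted p = 0.314), and the interaction was -0.95 (adjusted p = 0.499). PDZRN3 had an interaction of -0.78 and PDIA4 of -0.54 (adjusted p = 0.668 and 0.703).

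The genes with the smallest p for Nrf2 siRNA that do not belong to the groups above had 95% intervals of the interaction that included 0. NQO1, the quinone reductase that is a standard NRF2 target, had 46.6, 61.9 and 72.4 TPM in double-siRNA samples, 150.3, 191 and 179.5 TPM with Pink1 siRNA, 49.7, 40.3 and 43.5 TPM with Nrf2 siRNA and 153, 166 and 162 TPM with scramble. All samples given Nrf2 siRNA lay below all others, NQO1 fell by 1.83 with Nrf2 siRNA and by 1.42 with the double siRNA against scramble (limma, adjusted p = 0.000489 and 0.00301), and its interaction was 0.31 (95% interval -0.21 to 0.82). SCG2, a granin of secretory granules, had an interaction of 0.42 (95% interval -0.21 to 1.05). AKR1C3, an aldo-keto reductase with near-identical relatives that may share its reads, had 0.48 (-0.048 to 1.01). LAMTOR1, a subunit of the lysosomal Ragulator complex, had 0.31 (-0.16 to 0.79), and MMP2, the matrix gelatinase A, -0.13 (-0.52 to 0.26). Adjusted p for the interaction of NQO1, SCG2, AKR1C3, LAMTOR1 and MMP2 ran from 0.903 for AKR1C3 to 0.947 for MMP2.

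NRF2 target genes as a list departed little from additivity. Of 27 tested, 15 were positive and 12 negative, the median was 0.031, and 0 passed. The mean of the list against scramble was -0.22 with the double siRNA, 0.14 with Pink1 siRNA and -0.36 with Nrf2 siRNA, on the log2 scale. Per sample it was -0.47, -0.15 and -0.048 with the double siRNA, 0.011, 0.17 and 0.23 with Pink1 siRNA, -0.29, -0.42 and -0.37 with Nrf2 siRNA and -0.039, -0.0073 and 0.046 with scramble. The double-siRNA samples spanned those of Nrf2 siRNA and lay below all scramble samples. ABCC1, a drug efflux transporter, had the smallest p of the list, with -0.74 (limma, adjusted p = 0.899), while TXNRD1, cytosolic thioredoxin reductase, had 0.24 (95% interval -0.19 to 0.67). The sign of the list's median was negative in 5 of 24 alternatives, with values of -0.074 to 0.15 when single samples were left out.

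The 13 NRF2 partners and regulators had a median of 0.082 (0.0078 to 0.15 with single samples left out), with 9 positive. Among 28 mitophagy genes the median was 0.099 (0.011 to 0.25 with single samples left out), 18 were positive and 0 passed. At an unadjusted p under 0.05 there were 3 of the 28, against 5.45% of all genes. They were MFN1, a mitofusin (0.60), OMA1, a stress-activated protease of the inner membrane (0.77), and FKBP8, an outer-membrane mitophagy receptor (-0.57). Mitochondrial antioxidant genes (18 tested) had a median of 0.057 and mitochondrial chaperones and proteases (19 tested) of 0.083. Both medians changed sign with single samples left out, with values of -0.05 to 0.16 for antioxidant genes and -0.081 to 0.17 for chaperones and proteases.

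Interferon-stimulated genes had the most negative median of the 32 lists with at least 10 tested members, yet their double-siRNA and scramble samples overlapped widely. All 35 tested members were negative, against 54.0% of all genes, with a median of -0.75 and a range of -1.91 to -0.03. None passed, and none had an unadjusted p under 0.05. The mean of the list per sample was -0.72, -0.085 and 0.59 with the double siRNA, -0.97, -0.52 and -1.08 with Pink1 siRNA, 0.77, 2.59 and 1.58 with Nrf2 siRNA and -1.01, 0.58 and 0.44 with scramble, relative to the scramble mean on the log2 scale. Nrf2 siRNA samples were above all others, Pink1 siRNA samples were low, and scramble replicate 1 lay as low as Pink1 siRNA. Without scramble replicate 1 the list's median was -0.34, and without double-siRNA replicate 3 it was -1.18.

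The members share the same samples, so 35 negative values are not 35 separate observations. ISG15, a ubiquitin-like antiviral protein, had 34.98, 54.02 and 114 TPM in double-siRNA samples, 23.3, 36.8 and 17.9 TPM with Pink1 siRNA, 114, 578 and 222 TPM with Nrf2 siRNA and 12.5, 99.8 and 111 TPM with scramble. Its interaction was -0.97 with an SE of 1.06 and a 95% interval of -3.25 to 1.32. IFIT1, whose promoter is printed above, had 19.9, 50.9 and 82.1 TPM in double-siRNA samples, 14.5, 34.96 and 14 TPM with Pink1 siRNA, 80.2, 353 and 170.3 TPM with Nrf2 siRNA and 12.8, 88.01 and 79.2 TPM with scramble, with an interaction of -0.74 (SE 1.02). IFI6, an interferon-induced mitochondrial protein, had -0.30 (SE 0.783). EIF2AK2, the double-stranded RNA sensor PKR, had the smallest p of the list, with -0.69 (unadjusted p = 0.0659, adjusted p = 0.903). ISG15, IFIT1 and IFI6 were chosen after their values were seen.

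Among 19 RNA sensors, STAT and IRF factors, 16 were negative with a median of -0.38, and 2 were negative at an unadjusted p under 0.05, against 4.07% of all genes. The median was -0.18 without scramble replicate 1. STAT2, a subunit of the interferon-activated factor, had 36.9, 45.8 and 41.8 TPM in double-siRNA samples, 37.02, 44.9 and 44.7 TPM with Pink1 siRNA, 55.5, 97.1 and 67.1 TPM with Nrf2 siRNA and 28.8, 37.7 and 38.6 TPM with scramble. The Nrf2 siRNA samples lay above all others, and the interaction was -1.04 (SE 0.281, adjusted p = 0.577). IRF7, which amplifies interferon production, had 30.7, 27.1 and 28.6 TPM in double-siRNA samples, 16.4, 26.1 and 28.2 TPM with Pink1 siRNA, 39.7, 103 and 55.8 TPM with Nrf2 siRNA and 11.1, 28.9 and 29.2 TPM with scramble and an interaction of -1.17 (adjusted p = 0.899). MHC class I presentation genes (15 tested, 11 negative) had a median of -0.25, which was -0.041 without Nrf2 siRNA replicate 2, and near-identical HLA genes can share reads. CD68, the 1 blood and immune marker above 1 TPM, had 34.1, 34.8 and 52.5 TPM in double-siRNA samples, 25.2, 30.5 and 30.9 TPM with Pink1 siRNA, 42.3, 105 and 52.7 TPM with Nrf2 siRNA and 19.2, 33.8 and 37.9 TPM with scramble, and its part in these results was not tested.

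**Figure D4:**
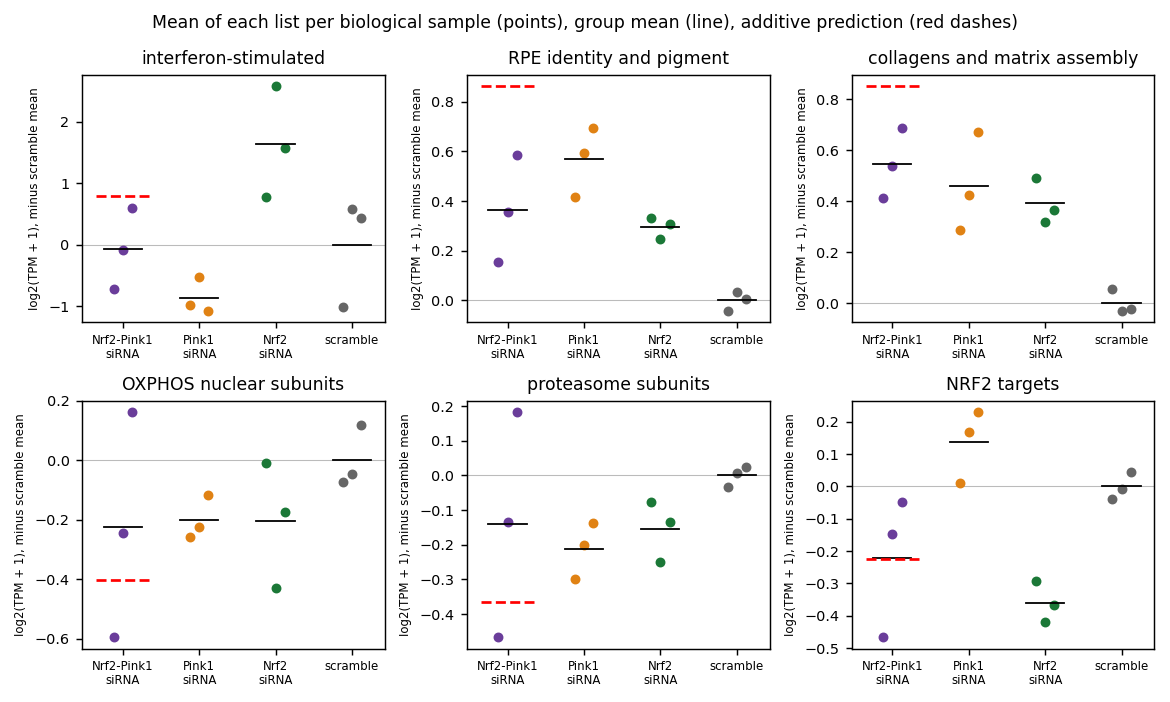
Mean of 6 gene lists per biological sample (points), relative to the scramble mean on the log2(TPM + 1) scale (y axes), with the group mean (black line) and the additive prediction for the double siRNA (red dashes). Double-siRNA means lie below the dashes for interferon-stimulated, RPE and matrix genes, above them for OXPHOS and proteasome genes and on them for NRF2 targets.

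Of 31 collagen and matrix assembly genes, 23 were negative, against 54.0% of all genes, with a median of -0.24, and 6 had a negative value at an unadjusted p under 0.05: COL6A1, FBN2, HMCN1, COL12A1, FBLN5 and PLOD1. Over all genes, 4.07% were negative at that p. The list's median was -0.12 without Pink1 siRNA replicate 3. The mean of the list was 0.41, 0.54 and 0.69 in double-siRNA samples, 0.29, 0.42 and 0.67 with Pink1 siRNA, 0.49, 0.32 and 0.37 with Nrf2 siRNA and 0.054, -0.031 and -0.022 with scramble. All 9 siRNA samples lay above scramble, and the 3 siRNA groups overlapped. COL6A1, a chain of collagen VI, had 18.3, 17.9 and 16.6 TPM in double-siRNA samples, 17.3, 18.1 and 26.2 TPM with Pink1 siRNA, 14.4, 17.6 and 16.1 TPM with Nrf2 siRNA and 8.28, 8.83 and 9.29 TPM with scramble. It rose by 0.93 with the double siRNA and by 1.11 with Pink1 siRNA against scramble (limma, adjusted p = 0.0223 and 0.00872), with an interaction of -0.98 (adjusted p = 0.499). Here too the siRNA groups overlapped, and the value rests largely on the low scramble samples.

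Among 10 IGF binding proteins and receptors, 9 were negative, against 54.0% of all genes, with a median of -0.26. There were 4 negative at an unadjusted p under 0.05, against 4.07% of all genes. They were IGFBP5, IGF2R, which clears IGF2 (-0.67), the receptor IGF1R (-0.83) and the adaptor IRS1 (-0.69). Complement genes (17 tested, 10 or 58.8% negative, against 54.0% of all genes) had a median of -0.14, which was positive in 3 of 24 alternatives. C1R, the first protease of the classical pathway, had 294, 399.5 and 421 TPM in double-siRNA samples, 291, 329 and 392 TPM with Pink1 siRNA, 408, 594 and 531 TPM with Nrf2 siRNA and 191, 240.4 and 225 TPM with scramble. It rose by 1.21 with Nrf2 siRNA against scramble (limma, adjusted p = 0.0236) with an interaction of -1.08 (adjusted p = 0.499), and its substrate C1S had an interaction of -0.82 (adjusted p = 0.774).

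Hypoxia-responsive genes (21 tested, 15 negative) had a median of -0.25, which was -0.11 without double-siRNA replicate 1. CA9, a membrane carbonic anhydrase, had 293, 266 and 491 TPM in double-siRNA samples, 168, 196 and 201 TPM with Pink1 siRNA, 254, 442 and 338 TPM with Nrf2 siRNA and 96.9, 126 and 130.5 TPM with scramble. It rose by 1.52 with the double siRNA and by 1.51 with Nrf2 siRNA against scramble (limma, adjusted p = 0.0165 and 0.0236), and its interaction was -0.68 (adjusted p = 0.903). Genes of endoplasmic reticulum folding (23 tested, 17 negative) had a median of -0.21, and those of ATF4 and the integrated stress response (24 tested, 18 negative) of -0.13. Autophagy and lysosome genes (35 tested, 23 negative) had a median of -0.15, with 5 negative at an unadjusted p under 0.05, against 4.07% of all genes. PI3K, AKT and mTOR genes (21 tested, 16 negative) had a median of -0.14. Leaving out single samples moved these medians by more than 1.5 times without a change of sign. The folding median was -0.096 without double-siRNA replicate 1, the ATF4 median -0.048 without Nrf2 siRNA replicate 2 and -0.29 without double-siRNA replicate 3. The autophagy median was -0.052 without Pink1 siRNA replicate 3 and -0.25 without Pink1 siRNA replicate 1, and the PI3K median -0.069 without double-siRNA replicate 1.

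Genes of energy and protein turnover leaned to the positive side by small amounts. Of 36 proteasome subunits, 34 were positive, against 46.0% of all genes, with a median of 0.20. Of 79 nuclear-encoded OXPHOS subunits, 62 were positive with a median of 0.17. Of 76 mitochondrial ribosomal proteins, 62 were positive with a median of 0.21, and of 80 cytosolic ribosomal proteins, 64 with a median of 0.12. None of these genes passed. At an unadjusted p under 0.05 there were 1 of 36 proteasome and 1 of 79 OXPHOS subunits, all positive. These were PSMD3, a lid subunit of the proteasome (0.75), and SDHC, a subunit of complex II (0.68). Positive at that p were also 2 of 76 mitochondrial and 0 of 80 cytosolic ribosomal proteins. Over all genes, 1.38% were positive at that p, so such small counts are not read as a result about the lists.

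The mean of the OXPHOS list was -0.60, -0.24 and 0.16 in double-siRNA replicates 1 to 3, -0.26, -0.23 and -0.11 with Pink1 siRNA, -0.0091, -0.43 and -0.17 with Nrf2 siRNA and -0.074, -0.046 and 0.12 with scramble. The proteasome list gave -0.47, -0.13 and 0.18 with the double siRNA, -0.30, -0.20 and -0.14 with Pink1 siRNA, -0.077, -0.25 and -0.13 with Nrf2 siRNA and -0.033, 0.0069 and 0.026 with scramble. In both lists the double-siRNA samples spanned the values of both single siRNAs. The share of TPM taken by ENSG00000226958 was highest in replicate 1 and lowest in replicate 3 of the double siRNA, and its part in this spread was not tested. With that gene removed and the rest rescaled, the OXPHOS median interaction stayed between 0.16 and 0.21, the range over the scaling alternatives. That median compares group means, so it does not measure the spread among the double-siRNA replicates. Without double-siRNA replicate 3 the medians were -0.013 for OXPHOS, -0.0019 for mitochondrial ribosomal, -0.099 for cytosolic ribosomal and 0.061 for proteasome genes. Without double-siRNA replicate 1 they were 0.34, 0.39, 0.33 and 0.37 in the same order.

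Epithelial junction and keratin genes (13 tested, 8 positive) had a median of 0.25 (0.096 without double-siRNA replicate 2). CLDN1, GJA1 and KRT18 were positive at an unadjusted p under 0.05, against 1.38% of all genes. GJA1, the gap-junction protein connexin 43, had 34.4, 65.5 and 63.5 TPM in double-siRNA samples, 81.4, 82.02 and 70.04 TPM with Pink1 siRNA, 66.4, 33.3 and 47.7 TPM with Nrf2 siRNA and 167, 131 and 141 TPM with scramble. It fell by 1.46 with the double siRNA and by 1.60 with Nrf2 siRNA against scramble (limma, adjusted p = 0.0255 and 0.0236), with an interaction of 1.04 (adjusted p = 0.816). Mesenchymal and EMT genes (19 tested, 12 positive) had a median of 0.032. Among them CCN2, a matricellular growth factor, had an interaction of 1.06 and TAGLN, an actin-binding protein of contractile cells, of 0.91 (adjusted p = 0.868 and 0.899). TAGLN had 906, 903 and 964 TPM in double-siRNA samples, 374, 352 and 585 TPM with Pink1 siRNA, 708, 331 and 506 TPM with Nrf2 siRNA and 584, 350 and 378 TPM with scramble, with all double-siRNA samples above the other 9.

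**Figure D5:**
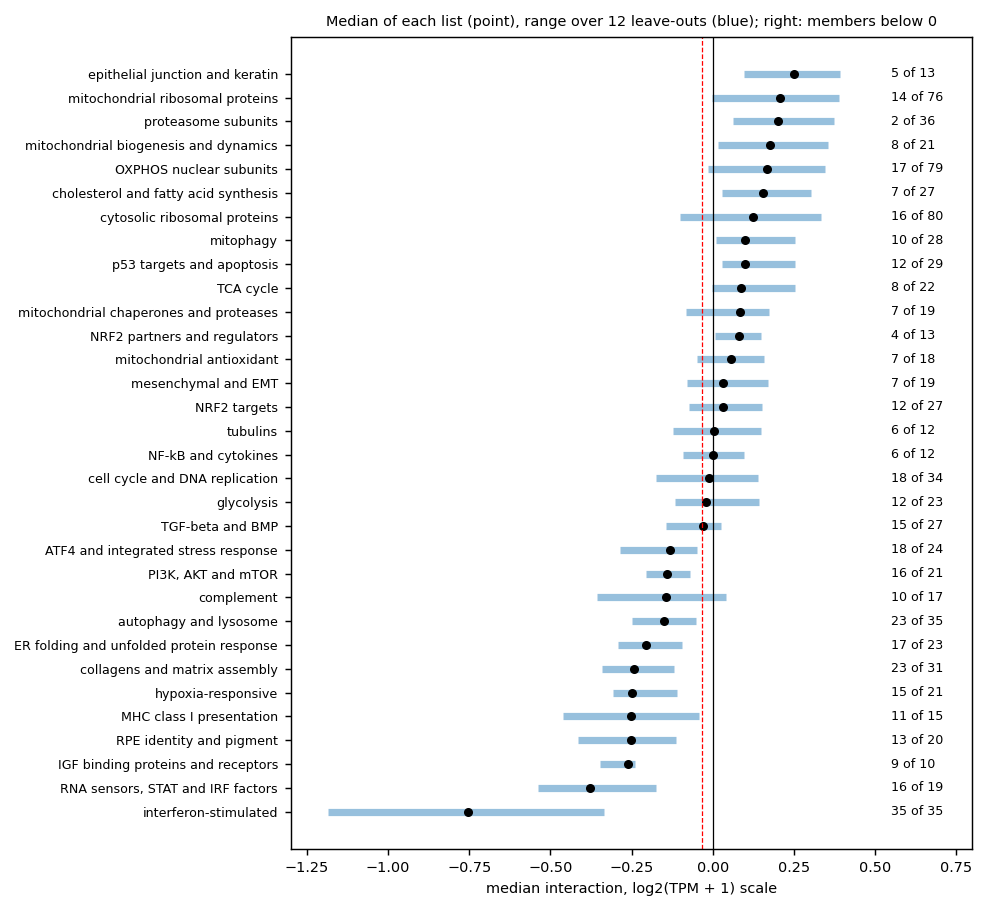
Median interaction of the 32 lists with at least 10 tested members (points, x axis, log2(TPM + 1) scale), with its range over the 12 fits that each left out 1 sample (blue bars) and, at the right, how many members were below 0. The red dashed line is the median over all tested genes, -0.034; interferon-stimulated genes lie lowest at -0.75 and epithelial genes highest at 0.25.

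In the remaining lists 0 members passed. Cholesterol and fatty acid synthesis genes (27 tested, 20 positive) had a median of 0.15, mitochondrial biogenesis and dynamics (21 tested) of 0.18, p53 targets and apoptosis (29 tested) of 0.098 and the TCA cycle (22 tested) of 0.086. With single samples left out, the medians ran over 0.028 to 0.30 for cholesterol and fatty acid synthesis, 0.015 to 0.36 for biogenesis and 0.03 to 0.25 for p53 targets. TGF-beta and BMP genes (27 tested) had a median of -0.03, glycolysis (23 tested) of -0.021, the cell cycle (34 tested) of -0.012 and tubulins (12 tested) of 0.0051. NF-kB and cytokine genes (12 tested) had a median of 0.0019 made of opposite values: CCL2, a chemokine for monocytes, had an interaction of 1.23 (adjusted p = 0.774) and CSF1, a growth factor for macrophages, of -0.996 (adjusted p = 0.499). The 4 metallothioneins had a median of 0.051. Of the other cell-type markers, 4 fibroblast genes had a median of 0.045, 2 neural and photoreceptor genes of -0.048, and the 1 endothelial gene an interaction of 0.31 (0.067 without Nrf2 siRNA replicate 2). The medians of the TCA cycle, TGF-beta and BMP, glycolysis, cell cycle, tubulin, NF-kB, metallothionein, fibroblast and neural lists changed sign when single samples were left out.

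PPARGC1A (ENSG00000109819), the coactivator PGC-1alpha that drives mitochondrial biogenesis, had the smallest p of the biogenesis list and was below 5 TPM on average. It had 2.31, 2.74 and 2.13 TPM in double-siRNA samples, 4.21, 4.39 and 7.83 TPM with Pink1 siRNA, 3.995, 3.68 and 3.47 TPM with Nrf2 siRNA and 1.19, 2.08 and 1.60 TPM with scramble. The double-siRNA samples lay below both single siRNAs and above scramble. PPARGC1A rose by 1.27 with Pink1 siRNA against scramble (limma, adjusted p = 0.0318), and with Nrf2 siRNA the difference was 0.86 (adjusted p = 0.151). Its interaction was -1.75 (SE 0.332, unadjusted p = 0.000153, adjusted p = 0.266) and did not pass. The gene was chosen after its values were seen.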

How the data were processed

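Stranded, paired-end mRNA libraries were sequenced from 12 biological samples, each with 2 technical replicates, per the labels' protocols. Per the submitters' processing notes, STAR, RSEM and edgeR were used with the build GRCh37 (hg19). Their versions and the role of each are not given in the sources at hand. Values are TPM as deposited by the authors, and columns sum to between 999678 and 999945. Symbols were found for 19325 of 24053 identifiers. Read depth cannot be taken from TPM, so no interval for counting error is given.

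The TPM of the technical pairs was averaged and taken as log2(TPM + 1). Genes averaging 1 TPM or more were fitted with limma 3.58.1 in R 4.3.3 (4 group means, intensity trend, 8 residual and 4.93 prior degrees of freedom). All tests are two-sided, p was adjusted by Benjamini-Hochberg over all genes tested, and a gene was called under 0.05. The script was tested on simulated data. Nothing in the labels says that replicates are separate cultures, so p measures the spread between these samples, which may be technical. A fold on this scale understates changes of low genes.

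Named genes are NFE2L2 and PINK1, the 10 genes with the smallest interaction p in each direction, the 8 with the smallest p for each single siRNA (all of at least 5 TPM with a symbol) and up to 2 members per list with the smallest interaction p. Any other gene given was picked with its values in view. Members, lists and tests were chosen with earlier results of these data known. Lists are described by counts and medians, with no test. Their sign counts are to be read beside the 54.0% of all genes tested that were negative and the 46.0% that were positive. Genes with near-identical copies (IFITM, HLA, keratin and ribosomal protein genes) are uncertain where reads were split between copies. Alternatives were other pseudocounts (0.1 and 5), filters, rescalings, sample weights, single technical replicates, a replicate block and leaving out each sample. Group weights were added after seeing the data.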

Additional observations from a re-analysis of the deposited data

How the results depend on the processing

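The count of called interaction genes was 0 with pseudocounts of 0.1 and 5, no filter, either technical replicate alone and group weights, an alternative chosen after seeing the data. It was 3 with a minimum of 5 TPM, 2 after median-of-ratios rescaling, 2 after quantile normalization and 2 with the highest gene removed (CP and TYRP1 in the last 3). Sample weights gave 504 calls, 223 higher and 281 lower, with a weight of 11.4 on double-siRNA replicate 2 against 0.211 and 0.291 on replicates 1 and 3, and that fit did not converge. Leaving out 1 sample gave 0 to 4 calls. CP and SLC7A8 were among the 4 without double-siRNA replicate 1, and CP was among the 4 without scramble replicate 1. TYRP1 was the 1 call without double-siRNA replicate 3. All other calls in these fits were small RNAs or genes without a symbol, such as RNU4ATAC, RNU6-936P, SNORA11F and SNORA31. SNORA32 and SNORA80D, the only calls without scramble replicates 2 and 3 in that order, were higher than additive. Where a group was left with 2 samples, the pooled spread was used. Deviations from the group means correlated by -0.11 to 0.20 between same-numbered samples of different groups and by -0.22 to 0.23 between different-numbered ones. The values therefore show no pairing by number, but so few samples cannot settle whether same-numbered samples were handled together. With the replicate block 0 genes were called. NFE2L2 and PINK1 kept their sign and were not called in any of the 24 alternatives. Most named genes were picked for the smallest interaction p of a direction or list, and the alternatives refit the same samples. A stable sign is therefore partly built in and is no separate support. With that limit, 84 of the 89 named genes never changed sign. The 5 that did had small values: MT1E (0.16) was -0.0069 with technical replicate 1 alone and -0.17 without double-siRNA replicate 3, PDPN (0.18) was -0.015 with technical replicate 1 alone, and MMP2 (-0.13) was 0.0079 with technical replicate 2 alone. PDE6B (-0.18) was 0.12 with sample weights, 0.063 without double-siRNA replicate 1 and 0.013 without scramble replicate 2, and TUBB3 (0.087) was -0.066 without Pink1 siRNA replicate 1. Over the samples left out in turn, MT1E ran from -0.17 to 0.50, PDE6B from -0.47 to 0.063 and TUBB3 from -0.066 to 0.23. The cause of these changes was not tested. Of 37 lists, 20 kept the sign of their median in every alternative run. Depth could not be assessed from TPM.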
